A study of Rattus with 6 samples.

Results

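Periplakin (Ppl), 5 further plakin genes (Evpl, Dsp, Plec, Dst and Macf1) and 3 desmosome-linked armadillo genes (Jup, Pkp2 and Pkp4) were examined by gene name in a table of 54012 genes from RNA sequencing. All 9 names matched 1 row each, and 7 of the 9 had a mean of at least 1 FPKM (fragments per length of gene and size of library) over the 6 libraries. Ppl was picked because it was lower in the si-CDCP1 libraries, so its values in that comparison are a description, with no test. The other members were chosen by family, with earlier results of these data known.

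The libraries came from primary cultures labelled as vascular smooth muscle cells of the aorta, all given angiotensin II (Ang II), a vasoconstrictor peptide. Before Ang II, 3 cultures labelled WT had received the siRNA si-NC, taken here as the control, and 3 labelled CDCP1 knockdown had received si-CDCP1. The labels give no dose, time or animal, and do not say whether replicates were separate isolations, and a p-value here speaks only of the spread among the 6 libraries, part of which may be technical. The organism label is Rattus, whereas the table holds mouse genes on build mm10. Which species the cells were was not settled here, and a gene listed at 0 may still have been transcribed.

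Plakins are large cytolinkers that tie intermediate filaments, and in some members actin and microtubules, to cell junctions and to each other. Desmoplakin (Dsp) is the plakin that couples desmosomes to intermediate filaments, through plakoglobin (Jup) and plakophilins bound to the desmosomal cadherins. Periplakin and envoplakin (Evpl) can pair with each other and are best known from the cornified envelope of stratified epithelium. Desmosomes are typical of epithelium and heart muscle, and vascular smooth muscle is joined mainly by adherens junctions built on N-cadherin.

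The libraries held 16050517 to 19771638 reads in listed genes, read back from the FPKM steps. The si-CDCP1 replicate 3 library stood apart. Its Pearson correlation with the other libraries over 12080 genes was at most 0.983, whereas the other 5 libraries reached at least 0.990 with their nearest neighbour. Of the 12080 tested genes, 30.0% were lower in it than in every other library and 34.0% higher. Cdcp1, the siRNA target, had 5 reads in the si-NC libraries together and 5 in the si-CDCP1 libraries together, so that the knockdown could not be checked. Smooth muscle Acta2 ranged from 35.7 to 39.6 FPKM in si-NC and from 34.4 to 64.2 FPKM in si-CDCP1. Smtn, another smooth muscle marker, was at 8.02 to 10.3 FPKM over the 6 libraries. The other 6 of 8 listed smooth muscle markers averaged under 1 FPKM. Among them Tagln, Cnn1 and Myh11, defining markers, were below 0.23 FPKM in every library. The markers thus bear out the label only in part, and with the species not settled a low value may not mean little transcript.

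Every si-CDCP1 library had less Ppl than every si-NC library. The gene (ENSMUSG00000039457, protein coding, mm10 chromosome 16, 5086291 to 5132421, minus strand) was at 4.90, 5.32 and 4.88 FPKM in si-NC replicates 1, 2 and 3. In si-CDCP1 replicates 1, 2 and 3 it was at 2.91, 3.20 and 2.51 FPKM. The lowest control value was thus 1.52 times the highest knockdown value. The si-NC mean was 5.03 ± 0.249 FPKM and the si-CDCP1 mean 2.87 ± 0.348 FPKM (SD, n = 3 each), 42.9% lower. On the scale of log2(FPKM + 1), where changes of low genes come out too small, the difference was -0.64 (SE 0.086). It was -0.57 without si-CDCP1 replicate 3, the library with the lowest Ppl. These values rest on 679, 598 and 601 reads in si-NC and 347, 360 and 270 reads in si-CDCP1. A log2 difference lower than that of Ppl was found for 66 of the 12080 tested genes. No other gene of the table overlaps Ppl in position.

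**Figure D1:**
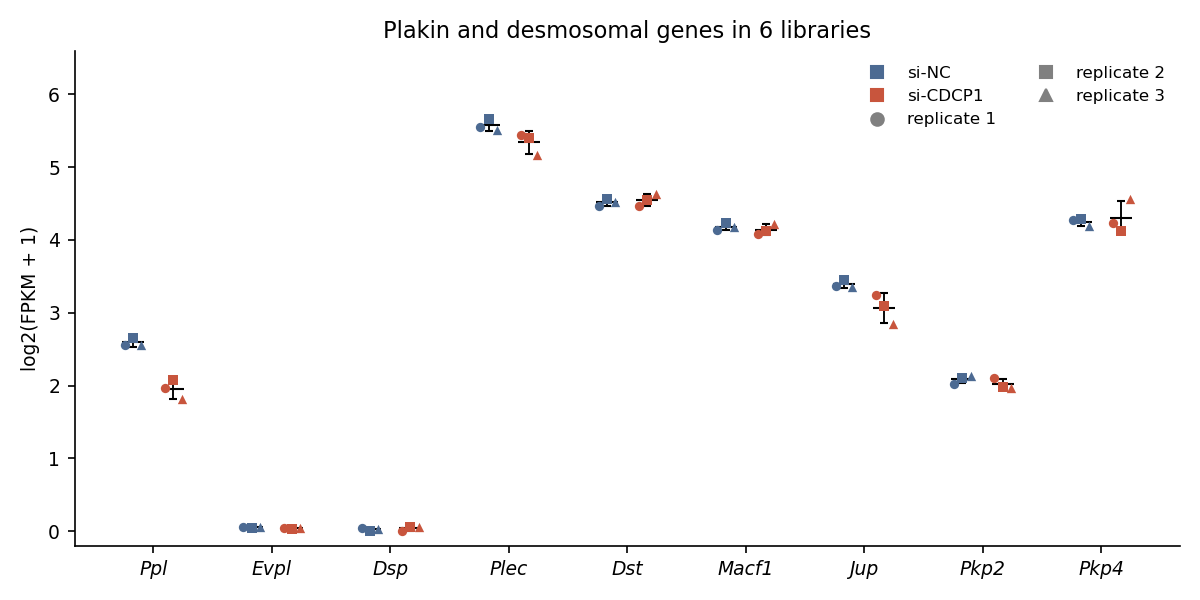
FPKM on a log2(FPKM + 1) scale for the 9 genes, each point 1 library (blue si-NC, red si-CDCP1, symbols for replicates), with the mean and SD as black bars. Ppl separates the groups, from 4.88 to 5.32 FPKM in si-NC and from 2.51 to 3.20 FPKM in si-CDCP1, while Evpl and Dsp lie near 0 in all 6 libraries.

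Evpl, the gene of the pairing partner of periplakin, was at the floor of detection. Envoplakin transcripts gave 5, 3 and 5 reads in si-NC and 3, 2 and 3 reads in si-CDCP1, or 0.0192 to 0.0438 FPKM. A floor of 3 reads is 0.0234 to 0.0301 FPKM for this gene. Per length, Ppl was at 83.4 to 185 times the level of Evpl in the 6 libraries. Evpl had a ratio of read shares (si-CDCP1 to si-NC) of 0.679, and its exact binomial 95% interval ran from 0.244 to 1.77, for counting error only. No difference in Evpl was detectable at this depth. Other cornified envelope genes (9 listed) were mostly low too, with 7 of 9 under a mean of 1 FPKM, among them Ivl, Tgm1 and the periplakin-binding Kazn. The exceptions were Tgm2, the tissue transglutaminase, at 46.9 to 52.8 FPKM, and the small proline-rich gene Sprr1a, at 11.2 to 19.6 FPKM. Neither had groups that separated (BH-adjusted p = 0.573 and 0.627 in limma's moderated test).

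Dsp was at the floor as well. Desmoplakin transcripts gave 6, 0 and 3 reads in si-NC and 0, 7 and 6 reads in si-CDCP1, at most 0.0445 FPKM. Both groups held libraries without a read. The ratio of read shares was 1.59, with an interval from 0.630 to 4.22. Of the 9 desmosomal cadherin genes listed (desmogleins and desmocollins, from Dsg1a to Dsc3), 7 had no read in any of the 6 libraries. For Dsg2, the desmoglein of broadest expression, 0 reads allow up to 0.0181 to 0.0233 FPKM per library. Dsc1 had 13 reads over the si-NC and 7 over the si-CDCP1 libraries, and Dsg3 had 2 reads in all. Summed over the 9 cadherins, the level was 0.0365 to 0.0691 FPKM in si-NC and 0 to 0.0762 FPKM in si-CDCP1. Perp, a tetraspan membrane protein found in desmosomes, was in contrast at 23.4 to 24.9 FPKM in every library.

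**Figure D2:**
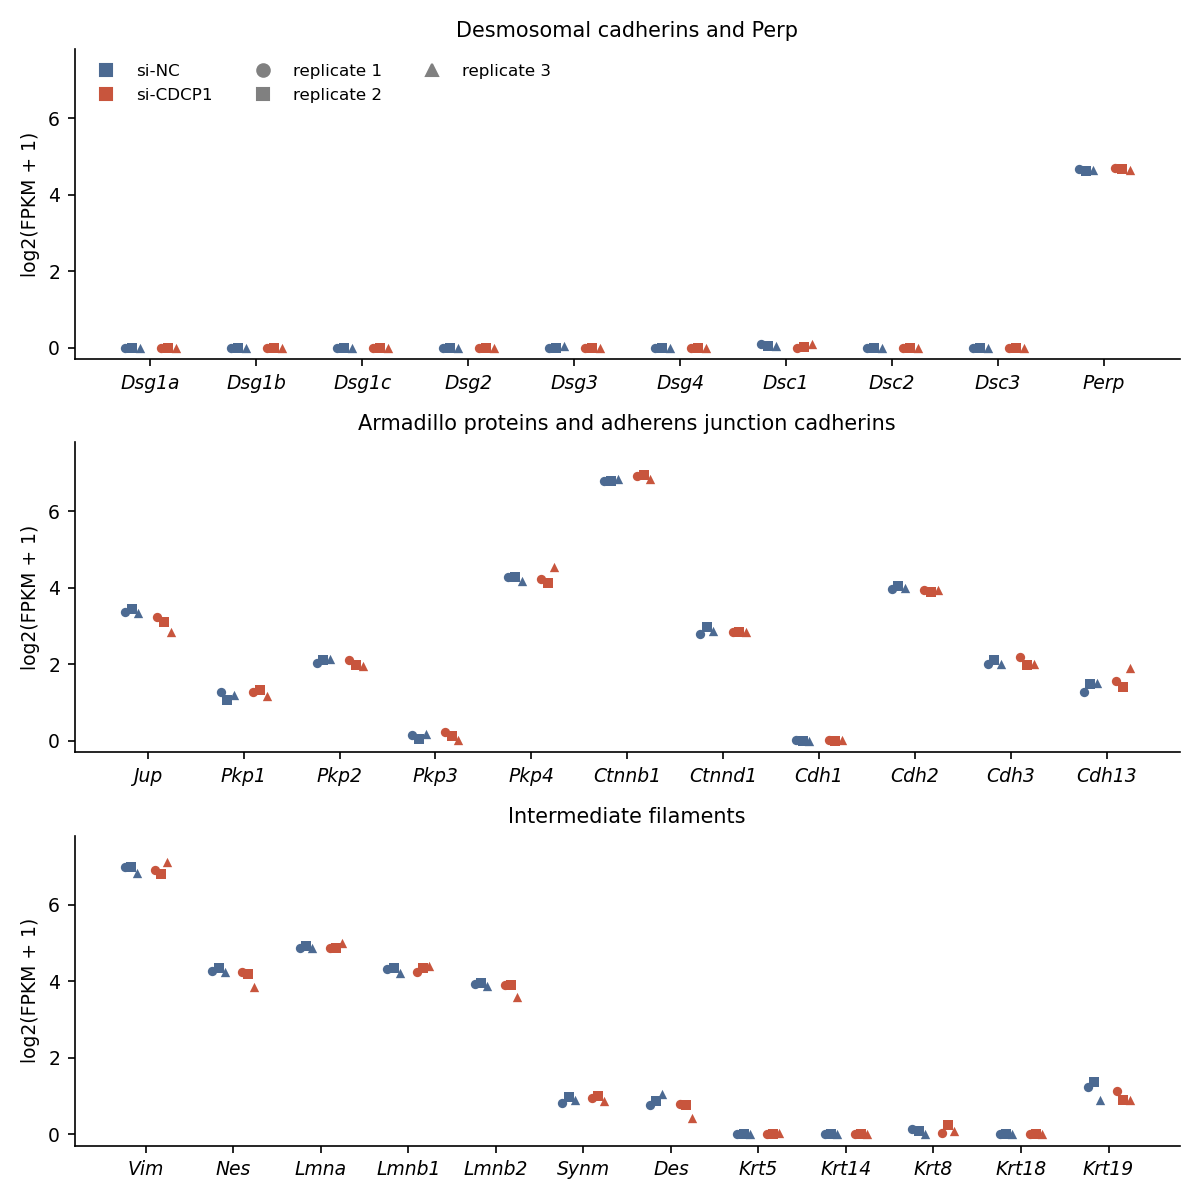
Levels of 10 desmosomal membrane genes (top), 11 armadillo and cadherin genes (middle) and 12 intermediate filament genes (bottom) on a log2(FPKM + 1) scale, each point 1 library. Desmosomal cadherins, Cdh1, Krt5, Krt14 and Krt18 lie at or near 0 in both groups, while Perp, Ctnnb1, Cdh2, Vim and the lamin genes are well above 1 FPKM.

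Plec was the most abundant member per length and every si-CDCP1 library had less of it than every si-NC library. Plectin binds vimentin, actin and integrin-linked anchoring sites. Its gene (mm10 chromosome 15, 76170974 to 76232574, minus strand) was at 45.8, 49.7 and 44.6 FPKM in si-NC and at 42.6, 41.5 and 34.9 FPKM in si-CDCP1. The groups did not overlap, but the lowest control and the highest knockdown value were 1.95 FPKM apart. The means were 46.7 ± 2.66 and 39.6 ± 4.15 FPKM (SD, n = 3 each), with a log2 difference of -0.23 (SE 0.085). It did not pass limma's moderated test over all genes (BH-adjusted p = 0.320). Without si-CDCP1 replicate 3 the difference was -0.15 (limma, BH-adjusted p = 0.257). In voom on recovered reads without that library Plec passed (BH-adjusted p = 0.0484), and 1.06% of all genes were called lower there. Parp10, a mono-ADP-ribosyltransferase gene at 45.1 FPKM, overlaps Plec on the same strand, and how reads in the shared stretch were assigned is not given in the sources used here, so the value of Plec is uncertain to that extent. Parp10 had a log2 difference of -0.13 and overlapping groups.

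The spectraplakins Dst and Macf1, which link actin to microtubules, had similar levels in both groups. Dst (dystonin, mm10 chromosome 1, 33908225 to 34308661, plus strand) was at 21.2, 22.7 and 22.0 FPKM in si-NC and at 21.1, 22.4 and 23.9 FPKM in si-CDCP1. Its log2 difference was 0.03 (SE 0.060, BH-adjusted p = 0.836 in limma) and turned to -0.01 without si-CDCP1 replicate 3 and to -0.02 with equal FPKM sums. Macf1 (mm10 chromosome 4, 123349633 to 123684360, minus strand) was at 16.7, 17.7 and 17.2 FPKM in si-NC and at 15.9, 16.5 and 17.6 FPKM in si-CDCP1. Its log2 difference was -0.04 (SE 0.056, BH-adjusted p = 0.729 in limma) and -0.08 without si-CDCP1 replicate 3. For both genes the ranges of the groups overlapped. Each rests on at least 8432 reads per library, so counting error is small beside the spread between libraries. Of 11 listed microtubule-end partners of spectraplakins, 10 were tested and 0 passed over all genes, with a median log2 difference of -0.01. Clasp1, a microtubule plus-end protein, had groups that did not overlap, at 4.22 to 4.35 FPKM in si-NC and 3.90 to 4.07 FPKM in si-CDCP1 (BH-adjusted p = 0.478 in limma). Mapre3, another plus-end protein, had a log2 difference of -0.12 (SE 0.063). Dctn1, the dynactin subunit that binds microtubules, had the highest mean of the 11 over the 6 libraries and had a log2 difference of -0.08 (SE 0.057).

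Jup had the second largest log2 difference among the 7 tested members. Plakoglobin is the armadillo protein shared by desmosomes and adherens junctions and a close relative of beta-catenin. Its gene (mm10 chromosome 11, 100368958 to 100397763, minus strand) was at 9.30, 9.94 and 9.23 FPKM in si-NC and at 8.48, 7.57 and 6.19 FPKM in si-CDCP1. All 3 knockdown libraries lay below all 3 controls. The means were 9.49 ± 0.390 and 7.41 ± 1.15 FPKM (SD, n = 3 each), and the log2 difference was -0.33 (SE 0.10). Jup did not pass over all genes (limma, BH-adjusted p = 0.296). Its difference was -0.22 without si-CDCP1 replicate 3, the library with the lowest Jup (limma, BH-adjusted p = 0.189). With limma's library weights it passed (BH-adjusted p = 0.0320). That fit gave si-CDCP1 replicate 2 a weight of 5.11 and si-CDCP1 replicate 3 one of 0.165, and it called 2.54% of all genes lower.

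The plakophilins did not separate the groups. Pkp2 (mm10 chromosome 16, 16213318 to 16272712, plus strand), the plakophilin of heart muscle desmosomes, was at 3.07, 3.30 and 3.40 FPKM in si-NC and at 3.31, 2.95 and 2.91 FPKM in si-CDCP1. Its log2 difference was -0.07 (SE 0.076, BH-adjusted p = 0.671 in limma). Pkp4 (mm10 chromosome 2, 59160850 to 59355208, plus strand), a relative of p120-catenin found at adherens junctions as well as desmosomes, was at 18.4, 18.5 and 17.2 FPKM in si-NC. In si-CDCP1 it was at 17.8, 16.5 and 22.5 FPKM. The third of these values, from si-CDCP1 replicate 3, was the highest of all 6 libraries. The log2 difference of Pkp4 was 0.05 (SE 0.11, BH-adjusted p = 0.831 in limma) and turned to -0.07 without that library. Pkp1, a plakophilin that was no member, was at 1.11 to 1.53 FPKM and overlapped between groups.

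Of the 6 tested members other than Ppl, 0 passed the adjusted threshold of 0.05, where limma called 0% of the 12080 genes. At an unadjusted p under 0.05, 2 of the 6 (Jup and Plec) were lower, against 5.31% of all tested genes, and 0 were higher, against 8.94%. With the libraries rescaled to equal FPKM sums these background shares were 10.8% lower and 4.45% higher, and with quantile normalization 6.61% and 6.54%. The count of 2 of the 6 is from the fit without rescaling, and counts for the other fits are not given here. The log2 differences of Jup and Plec were -0.38 and -0.29 with equal sums and -0.33 and -0.31 with quantile normalization. The same 2 members had groups that did not overlap, both lower in si-CDCP1, against 10.6% of all tested genes, and 0 of the 6 were higher without overlap, against 14.4%. The median log2 difference of the 6 was -0.06, and -0.08 without si-CDCP1 replicate 3, against 0.01 for all tested genes in both cases. Voom on recovered reads called 0.0348% of 14365 genes and none of these 6 members. Of the 7 tested members, 4 (Jup, Plec, Pkp2 and Ppl) had their lowest value in si-CDCP1 replicate 3, against 30.0% of all tested genes. Another 2 (Dst and Pkp4) had their highest there, against 34.0%.

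**Figure D3:**
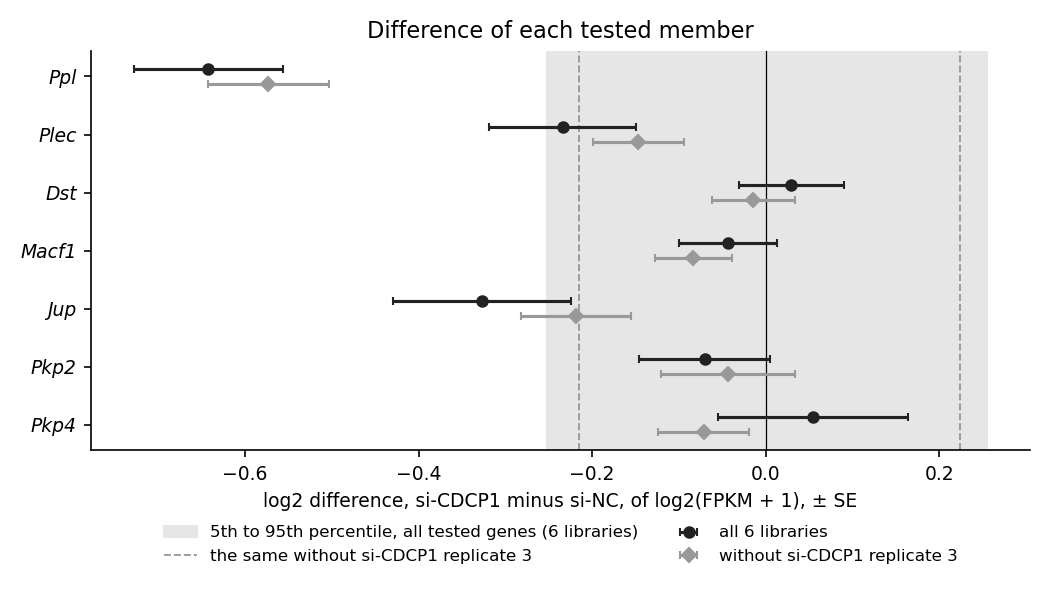
Log2 difference of the 7 tested genes with its standard error, in all 6 libraries (black circles) and without si-CDCP1 replicate 3 (grey diamonds); the band holds the 5th to 95th percentile of all 12080 tested genes with 6 libraries, from -0.25 to 0.25, and dashed lines mark the same percentiles without that library, -0.21 and 0.22. Ppl, which was picked for its fall, lies below the 5th percentile of each fit. Jup does so by less (at -0.33 and -0.22), and Dst and Pkp4 change side.

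The order of levels per length in si-NC was Plec, Dst, Pkp4, Macf1, Jup, Ppl, Pkp2, Evpl and Dsp. Of the neighbours in this order, Pkp4 and Macf1 overlapped, as did Evpl and Dsp, and the ranges of all other neighbours were separate. In si-CDCP1 the ranges of Ppl (2.51 to 3.20 FPKM) and Pkp2 (2.91 to 3.31 FPKM) overlapped, whereas in si-NC Ppl was above Pkp2 in every library. Ppl was picked for its fall, so its change of place is no separate result. The ranges of Dst and Pkp4, separate in si-NC, overlapped in si-CDCP1 as well.

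The deposited domain annotation sets the plakins apart from the armadillo members. The SH3 domain that sits within the plakin domain was annotated for 6 of the 54012 genes, and these were exactly the 6 plakin members. Plectin repeats, which bind intermediate filaments, were annotated for 5 of them and for epiplakin (Eppk1), but not for Ppl. Plec, Dst and Macf1 carried a calponin homology domain, which binds actin, and Dst and Macf1 also spectrin repeats and the microtubule-binding Gas2 domain. Eppk1, at 0.678, 0.870 and 0.612 FPKM in si-NC and 0.651, 0.527 and 0.286 FPKM in si-CDCP1, was below the filter and had overlapping groups. From 478 and 300 reads, the read shares of Eppk1 had a ratio of 0.692. For counting error only, the exact binomial 95% interval spanned 0.597 to 0.801. Across genes, pairs of replicates differed by more than counting error (chi-square per degree of freedom 2.86 to 16.3). The interval is therefore too narrow for a difference between groups. Armadillo repeats were annotated for 30 genes, of which 13 were tested. Of these 13, 1 gene, Jup, was lower at an unadjusted p under 0.05 and 0 were higher, against 5.31% and 8.94% of all tested genes, and 3 of the 13 had negative log2 differences (median 0.07).

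All 9 members had genes longer than the median of 3980.5 bases for tested genes, from 5360 bases for Pkp2 to 41155 for Dst. In si-CDCP1 replicate 1 gene length and the deviation of a gene from its mean had a rank correlation of -0.31 across the 12080 genes, which are not independent replicates. In the other libraries this correlation lay between -0.04 and 0.09. With each library's length trend removed the log2 differences were -0.64 for Ppl, -0.32 for Jup, -0.22 for Plec, 0.05 for Dst and -0.03 for Macf1. The differences of Ppl, Jup and Plec were thus about as large with the trend removed.

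Around these members, the armadillo gene Ctnnb1 and the filament gene Vim were the most abundant. Ctnnb1, beta-catenin, was at 110.7 to 113.6 FPKM in si-NC and 114.8 to 122.7 FPKM in si-CDCP1. It was thus higher in every si-CDCP1 library, opposite to Jup, but did not pass (log2 difference 0.09, SE 0.046, BH-adjusted p = 0.391 in limma). The difference of Ctnnb1 was 0.0017 with quantile normalization and 0.038 with equal FPKM sums. The groups of Vim, vimentin, overlapped, at 113 to 126 FPKM in si-NC and 111 to 138 FPKM in si-CDCP1. Of 17 intermediate filament genes 8 were tested and 0 passed. Nes, nestin, was at 17.8 to 19.2 FPKM in si-NC and 13.3 to 17.8 FPKM in si-CDCP1, with the lowest value in si-CDCP1 replicate 3 (log2 difference -0.19, SE 0.10), and the lamin gene Lmnb2 had a log2 difference of -0.12 (SE 0.090). Without that library the differences were -0.07 for Nes and -0.01 for Lmnb2. Of the keratin partners of plakins, Krt14 and Krt18 had no read, Krt5 had 1 read and Krt8 had 15 reads over the 6 libraries. Krt10 was at 1.55 to 1.89 FPKM and Krt19 at 0.844 to 1.55 FPKM, both with overlapping groups.

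Of 16 cadherin and adherens junction genes 9 were tested and 0 passed. N-cadherin (Cdh2) was at 14.6 to 15.6 FPKM in si-NC and 13.7 to 14.4 FPKM in si-CDCP1, with a log2 difference of -0.09 (SE 0.050, BH-adjusted p = 0.432 in limma). Vcl, which links junctions and focal adhesions to actin, had a log2 difference of -0.18 (SE 0.070, BH-adjusted p = 0.333) and groups that did not overlap. Ctnna1, alpha-catenin, was the most abundant of the 16, with overlapping groups at 76.9 to 84.7 FPKM. The hemidesmosome genes, which use plectin and dystonin as their plakins, had 3 of 7 tested and 0 that passed. Among them the tetraspanin Cd151 was at 37.6 to 39.7 FPKM, with overlapping groups. Itgb4, the integrin subunit that plectin binds in hemidesmosomes, and Col17a1 were below the filter. Over the 36 tested genes of all lists that were no members, 0 passed in limma or in voom, 1 (Vcl) was lower and 0 higher at an unadjusted p under 0.05, and 2 (Ctnnb1 and Vcl) passed with library weights. The shares among all tested genes were 5.31% lower and 8.94% higher at that unadjusted p, and 7.16% passed with library weights. Of these 36, 5 were lower and 2 higher without overlap between groups, against 10.6% and 14.4% of all tested genes, and the median log2 difference was 0.01.

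Ppl, Evpl and Dsp are strongly expressed in epithelium, so epithelial markers were read beside them. Of 11 epithelial markers 1, Krt19, was tested. Their summed level was 1.02 to 1.87 FPKM in si-NC and 1.23 to 1.44 FPKM in si-CDCP1, with overlapping ranges, and Krt14 and Krt18 were at 0. Trp63, a transcription factor of basal epithelial cells, was below the filter and lower in every si-CDCP1 library. It was at 0.101 to 0.197 FPKM in si-NC and 0.0551 to 0.0916 FPKM in si-CDCP1, from 65 and 29 reads. Krt19 and Grhl2 also had a lower mean after knockdown. Esrp1 went the other way, with a mean of 0.0463 FPKM in the controls, 0.0933 FPKM after knockdown and overlapping groups. Krt8, Epcam, Cldn4, Cdh1 and Krt5 likewise had a higher mean after knockdown, each from few reads. The directions of the epithelial markers were thus mixed, and most rest on too few reads to give one. Krt19 (125 and 89 reads in si-NC and si-CDCP1) and Trp63, with the most reads, had a lower mean. Esrp1 (17 and 29 reads) had a higher one. Mesothelial markers (5, led by Msln) summed to 3.33 to 5.07 FPKM in si-NC and 2.93 to 3.73 FPKM in si-CDCP1. Fibroblast markers summed to 277 to 310 FPKM in si-NC and 275 to 310 FPKM in si-CDCP1, nearly all of it Col1a1. Among them Pdgfra, a growth factor receptor, lay lower in every knockdown library, at 7.59 to 9.49 FPKM against 9.97 to 10.6 FPKM in the controls, and did not pass (log2 difference -0.24, BH-adjusted p = 0.316 in limma). Col1a1 and Dcn had log2 differences of -0.0055 and 0.0026, and Lum had 1 read in all. Dpt had a higher mean after knockdown, 0.821 against 0.337 FPKM, with overlapping groups. Of its 67 knockdown reads, 51 came from si-CDCP1 replicate 3. Endothelial markers stayed at or under 0.515 FPKM and cardiomyocyte markers at or under 0.763 FPKM in sum. Macrophage and blood markers summed to 2.88 to 3.07 and 2.67 to 3.25 FPKM. Within this sum Cd68, a lysosomal protein of macrophages, was at 1.22 to 1.31 FPKM in the controls and 0.714 to 0.879 FPKM after knockdown. Lyz2, a lysozyme, differed the other way, at 1.58 to 1.74 and 1.95 to 2.37 FPKM. Neither overlapped between groups and neither passed (limma, BH-adjusted p = 0.298 and 0.340). Beside Pdgfra, Cd68 and Lyz2, 10.6% of all tested genes were lower and 14.4% higher without overlap. In these bulk libraries fewer cells of a type and less RNA per cell cannot be told apart, and the part of other cell types in the Ppl difference was not tested.

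The 5 genes whose values across the 6 libraries were most like those of Ppl were Irf7, Oas3, Adamts5, Gm23468 and Oas2. Likeness was the root mean square difference of log2(FPKM + 1) values centred on each gene's mean, over 8148 genes that averaged 5 FPKM or more, and it was 0.11 for Irf7, 0.13 for Oas3, Adamts5 and Gm23468 and 0.14 for Oas2. Irf7, a transcription factor of the interferon response, was at 70.8 to 76.3 FPKM in si-NC and 51.7 to 52.9 FPKM in si-CDCP1. Oas3, a sensor of double-stranded RNA, was at 7.40 to 8.48 and 4.34 to 5.18 FPKM, and its relative Oas2 at 26.7 to 29.7 and 15.7 to 16.9 FPKM. Adamts5, an aggrecan-cleaving protease, was at 6.77 to 7.20 and 4.47 to 5.40 FPKM. Gm23468, a small nuclear RNA gene, rests on only 40 reads over the si-NC libraries and 18 over the si-CDCP1 libraries. As Ppl separates the 2 groups, this measure favours any gene that does so by a like amount, and no test was made.

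**Figure D4:**
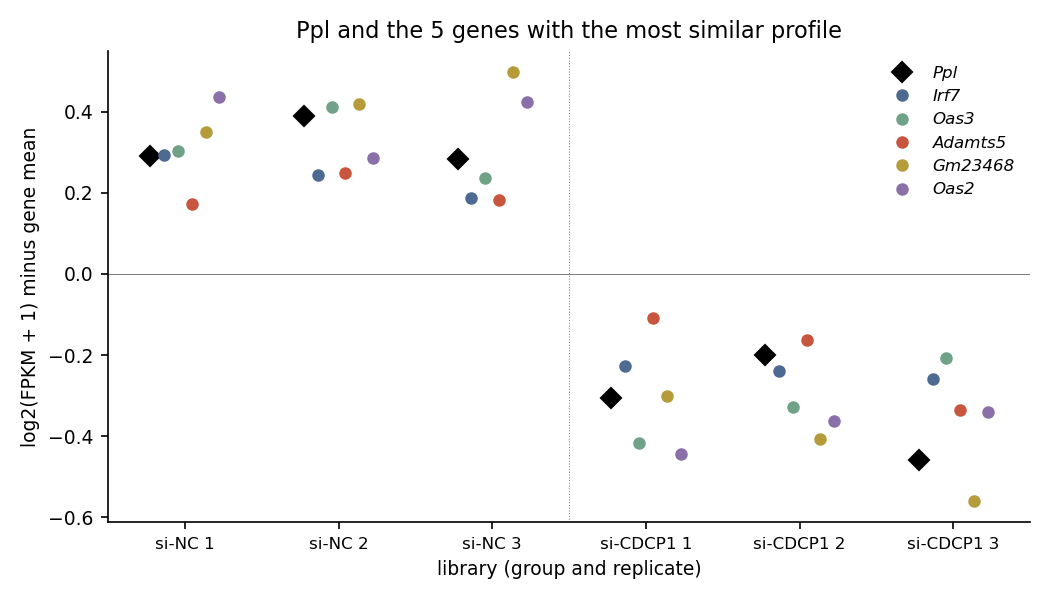
Values of Ppl (black diamonds) and the 5 genes most like it, as log2(FPKM + 1) minus each gene's mean, in each of the 6 libraries. All 6 genes lie above 0 in the 3 si-NC libraries and below 0 in the 3 si-CDCP1 libraries; Ppl is lowest in si-CDCP1 replicate 3, while Oas2 and Oas3 are lowest in si-CDCP1 replicate 1.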

How the data were processed

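The authors deposited 1 table of FPKM values for 6 libraries (3 si-NC, 3 si-CDCP1), with mouse Ensembl identifiers, gene lengths and domain annotation, per the file headers; the build is mm10, per the submitters' processing notes. Libraries were made from total RNA with a SMARTER mRNA kit, per the labels' protocols. The sources used here do not give the aligner, counter or strand setting. Groups follow the sample titles. FPKM times gene length gave whole reads (within 0.01) for 100.0% of values above 0. Genes that averaged 1 FPKM or more (12080) were compared as log2(FPKM + 1) in limma 3.58.1 (R 4.3.3), two-sided with an intensity trend, Benjamini-Hochberg (BH) adjustment over all tested genes and a threshold of 0.05. The fit was also run on simulated reads, with the same relative spread for all genes and no outlying library. Its outcome is not used here. No 2 replicates were duplicates (chi-square per degree of freedom at least 2.86). Alternatives were another pseudocount (0.1), filters, scalings, library weights, a replicate block, a length correction (lowess, span 0.3), voom on recovered reads (at least 10 in 3 libraries) and each library left out. Voom took the totals that the FPKM values imply as library sizes. Named genes were the members, per list the 2 non-members with the smallest p and the most abundant gene, defining cell type markers, and the 5 genes most like Ppl. A gene that this rule names is not reported here. Genes such as Perp, Eppk1, Krt8, Krt10, Parp10, Smtn, Trp63, Esrp1, Cd68, Lyz2, Pdgfra, Dpt and the desmosomal cadherins were named after their values were seen. Members and lists were chosen with earlier results of these data known. Intervals and floors cover counting error only.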

Additional observations from a re-analysis of the deposited data

How the results depend on the processing

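Limma called 0 of 12080 genes, with 1722 at an unadjusted p under 0.05; the count was 7 with no filter, 4 at a mean of at least 5 FPKM, 2 with quantile normalization, 1 with equal FPKM sums, 3 with the length trend removed, 865 with library weights, 5 in voom on recovered reads and 493 in voom without si-CDCP1 replicate 3. Leaving out 1 library gave 0 to 1. The replicate number as a block gave 1. The labels name no pairing. Deviations from the group means had correlations of -0.02, 0.03 and 0.02 between same-numbered libraries, and of -0.05 to 0.03 between the others. Such deviations sum to 0 over the 3 libraries of a group. Whether same-numbered libraries shared an isolation or batch was therefore not settled. Of the members other than Ppl, 1 was called with library weights (Jup) and 1 in voom without si-CDCP1 replicate 3 (Plec), and of the list genes 2 with library weights (Ctnnb1 and Vcl). Ppl stayed negative in all 15 alternatives that gave a value (it lies below the 5 FPKM filter), at -0.79 with a pseudocount of 0.1, -0.53 with library weights and -0.81 in voom; leaving out 1 library gave -0.70 to -0.57, and the cause of these shifts was not tested. Small differences changed sign. Under quantile normalization, Dst (-0.014), Vim (-0.080), Ctnna1 (-0.083) and Tgm2 (-0.014) did so. With equal sums these were Dst (-0.023), Vim (-0.043) and Ctnna1 (-0.036), and with library weights Pkp4 (-0.097) and Vim (-0.11). In voom without si-CDCP1 replicate 3 they were Dst (-0.014), Pkp4 (-0.075), Vim (-0.078), Ctnna1 (-0.015) and Sprr1a (-0.026). With 1 library left out, the lowest and highest values were -0.014 and 0.073 for Dst, -0.072 and 0.14 for Pkp4, -0.078 and 0.081 for Vim, -0.014 and 0.054 for Ctnna1 and -0.022 and 0.32 for Sprr1a.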
